A study of Mus musculus with 15 samples.

Results

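Cells obtain cholesterol by taking up lipoproteins, free it from them in lysosomes, and pass it on to other membranes. The 7 genes described here serve steps of this route: Mylip, Lrp1, Scarb1, Npc1l1, Npc1, Npc2 and Stard4. They were found by their gene names among the 54532 genes of the liver and lung count tables, and all 7 were present in both. RNA was sequenced from the livers of 4 mice on the control diet (CS) and 5 mice on the same kind of diet with 2% phytosterols (PS), and lung RNA from 3 mice of each diet, with 1 library per mouse and tissue, and 6 of the mice gave both tissues. All were male wild-type C57BL/6J mice, an inbred laboratory strain, and no transgene or drug was involved. The labels give an age of 28 weeks, a number that elsewhere stands for the length of the feeding. Phytosterols are plant sterols that resemble cholesterol and reduce its absorption in the gut. The comparison asked whether the diet altered the RNA of the uptake and transport genes in a tissue that handles most lipoprotein cholesterol, the liver, and in a peripheral one, the lung.

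Uptake at the cell surface is served by endocytic receptors such as Lrp1, which internalizes remnant lipoproteins, and by the scavenger receptor Scarb1, which takes cholesteryl esters from high-density lipoprotein without engulfing the particle. Mylip is a ubiquitin ligase that marks lipoprotein receptors for breakdown and is induced by the sterol-sensing receptor LXR. Npc1l1 takes up sterols at the intestinal brush border. In the lysosome the soluble protein Npc2 binds cholesterol and hands it to the membrane protein Npc1 for export, and in the cytosol Stard4 carries sterol between membranes. Stard4 is a known target of SREBP-2, the transcription factor that is activated when cholesterol in the endoplasmic reticulum is low.

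The promoters below are shown for Mylip and Npc2, the members whose lung levels did not overlap between the diets, and for Npc1l1, which was barely detected. They are RefSeq sequences of GRCm38.p6, 5′ to 3′ on the gene's strand, and end at the transcription start or, for Npc2, at the gene's 5′ end in the count tables. Mylip is chr13:45389492-45389741 (plus strand, 250 bases), Npc2 is chr12:84773153-84773362 (minus strand, 210 bases) and Npc1l1 is chr11:6230246-6230495 (minus strand, 250 bases). Capitals mark the motifs searched on both strands.
Mylip: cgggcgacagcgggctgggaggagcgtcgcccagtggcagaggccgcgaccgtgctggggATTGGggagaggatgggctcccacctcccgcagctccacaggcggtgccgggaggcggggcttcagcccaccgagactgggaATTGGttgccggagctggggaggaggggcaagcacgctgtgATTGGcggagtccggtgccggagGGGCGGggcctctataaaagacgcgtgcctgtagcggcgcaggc
Npc2: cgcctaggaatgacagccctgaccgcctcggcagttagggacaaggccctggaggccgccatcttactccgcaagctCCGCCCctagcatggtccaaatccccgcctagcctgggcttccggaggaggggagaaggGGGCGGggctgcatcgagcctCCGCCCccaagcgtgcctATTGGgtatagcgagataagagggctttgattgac
Npc1l1: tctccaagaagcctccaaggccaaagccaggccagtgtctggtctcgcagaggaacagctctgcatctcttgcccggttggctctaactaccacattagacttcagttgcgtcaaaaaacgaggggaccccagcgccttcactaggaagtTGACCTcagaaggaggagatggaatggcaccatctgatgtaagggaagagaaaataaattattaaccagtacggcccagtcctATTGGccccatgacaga
Mylip held 3 copies of the NF-Y box CCAAT, all on the opposite strand and so printed as ATTGG, and 1 Sp1 box GGGCGG. The printed part of Npc2 held 1 NF-Y box and 3 Sp1 boxes. Npc1l1 held 1 NF-Y box and, on the opposite strand, 1 AGGTCA, the core that many nuclear receptors bind. In the 250 bases before the start, the NF-Y box is present in 33.8% of 32851 mouse promoters, the Sp1 box in 32.7% and AGGTCA in 14%. The sterol regulatory element core CACCCCAC, present in 2.58% of promoters, and the E box CACGTG, present in 6.02%, were in none of the 4 members searched, which included Lrp1. A match describes the letters of the promoter and is no evidence that a factor binds.

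In mm10 coordinates, Mylip (ENSMUSG00000038175) lies at chr13:45389742-45412022, Lrp1 (ENSMUSG00000040249) at chr10:127538161-127621148, Scarb1 (ENSMUSG00000037936) at chr5:125277087-125341094 and Npc1l1 (ENSMUSG00000020447) at chr11:6211013-6230143. Npc1 (ENSMUSG00000024413) lies at chr18:12189693-12236400, Npc2 (ENSMUSG00000021242) at chr12:84754562-84773152 and Stard4 (ENSMUSG00000024378) at chr18:33199355-33213862. Mylip is on the plus strand and the other 6 are on the minus strand, and each is annotated as protein coding. Exons of Npc1 share 511 of 11317 bases with Rmc1 on the opposite strand and 90 with Gm15956, also on the opposite strand, and reads there cannot be told apart if the counting ignored strand, which is not given in the sources used here. No other transcript matched a member at 95% identity over 200 bases or more, apart from the overlap with Rmc1.

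The libraries held 14410117 to 17625179 counts in the liver and 17934930 to 19396057 in the lung. The marker sums went with the labelled tissues: those of hepatocytes were high in the livers and at most 94.8 CPM in the lungs, and those of club and alveolar cells were high in the lungs. Some libraries stood apart in the share of mitochondrial counts. It was 14.4% in the liver of CS replicate 2 and 13.3% in that of PS replicate 1, against 3.33% to 9.79% in the other livers. In the lung it was 6.13% in PS replicate 1 and 7.28% in PS replicate 2, against 2.94% to 3.69% in the other lungs. Of 20 lists with 82 cell type markers, 48 markers could be tested in the liver and 69 in the lung. None was called in the liver (0 higher, 0 lower), beside 0.00758% of all genes. The lung had 1 called lower, from the stellate cell list, beside 9.22% of all genes. The sums of 1 list per tissue did not overlap between the diets, stellate cells in the liver (43.2 to 60.4 CPM in CS and 25.8 to 41.3 CPM in PS) and alveolar type II cells in the lung. In the liver the 4 markers of Kupffer cells, the resident macrophages, had a median log2 difference of -0.76, and their sums were 151 to 194 CPM in CS and 50.0 to 159 CPM in PS mice, with 4 of 5 PS livers below every CS liver. The 4 markers of vascular endothelium had a median of -0.56 and sums of 31.0 to 44.9 CPM and 16.6 to 40.7 CPM, again with 4 of 5 PS livers below every CS liver. For sinusoidal endothelium, with a median of -0.31, 4 PS livers lay below and 1 above every CS liver. Fat cell markers varied within both diets in the lung, from 11.7 to 114 CPM in CS and from 0.0558 to 97.6 CPM in PS. Their median log2 difference was -1.46 over 4 markers, and 2 of 3 PS lungs lay below every CS lung. In bulk tissue, fewer cells of a type and less RNA per cell cannot be told apart.

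In the liver, Stard4 was the member with the largest difference between the diets, at 2.33-fold the CS level in PS mice. The other 5 members tested lay within 1.22-fold of the CS level in either direction. No member passed the adjustment for all 13195 genes tested with edgeR's quasi-likelihood test, in which 1 gene was called at an adjusted p under 0.05 (0.00758% of those tested) and 65 without CS replicate 2. Stard4 was the 1 member with an unadjusted p at most 0.05, which 7.55% of all genes reached, and the 1 member called by DESeq2, which called 0.821% of all genes. It was also the 1 member of 6 whose groups did not overlap, which held for 3.63% of all genes.

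The levels of Stard4 in the CS livers were 26.0, 13.5, 35 and 21.8 CPM (gene counts per scaled library size, by TMM within the tissue) in replicates 1 to 4. In the PS livers they were 46.2, 50.4, 49.3, 67.9 and 67.4 CPM. Every PS liver was above every CS liver, and the lowest CS value came from replicate 2, a liver rich in mitochondrial counts. The CS livers averaged 24.1 ± 8.93 CPM (SD, n = 4) and the PS livers 56.2 ± 10.5 CPM (SD, n = 5), a log2 difference of 1.22 ± 0.26 (SE, 95% confidence interval 0.65 to 1.79). The unadjusted p was 6e-04, rank 44 of all genes, and the adjusted p from edgeR was 0.175. DESeq2's Wald test gave 1.22 with an adjusted p of 0.00507, so the call depended on the tool. Without the livers of CS replicate 2 and PS replicate 1 together, a choice made after seeing the data, the log2 difference was 1.09 and edgeR's adjusted p 0.0650. Hepatocyte markers summed to 74570 to 104800 CPM in CS and 88760 to 113200 CPM in PS livers, with 4 of 5 PS livers above every CS liver and a median log2 difference of 0.087 over the 6 genes, and their part in the Stard4 difference was not tested.

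**Figure D1:**
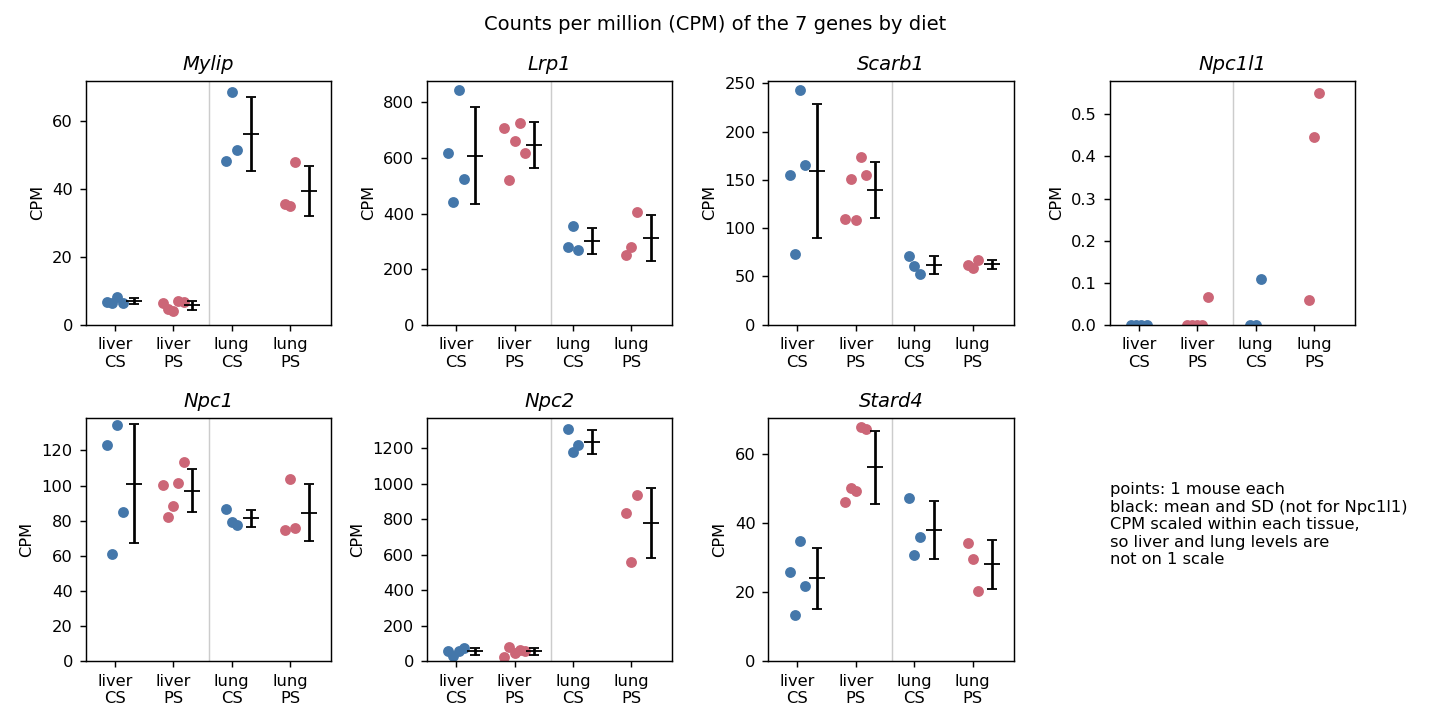
CPM of each of the 7 genes (vertical axis, starting at 0) in every liver and lung library, by diet. Points are single mice and the black bars give the mean and SD except for Npc1l1. The 5 PS livers lie above the 4 CS livers for Stard4, and the 3 PS lungs lie below the 3 CS lungs for Npc2 and, by a narrow margin, Mylip. CPM was scaled within each tissue, so liver and lung levels are not on 1 scale.

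Among the surface members, Lrp1 ranged from 443 to 846 CPM in CS livers and from 522 to 727 CPM in PS livers. Scarb1 ranged from 72.8 to 243 CPM in CS and from 109 to 174 CPM in PS. For both receptors the PS range lay inside the CS range. The log2 difference was 0.090 ± 0.21 (SE) for Lrp1, with a 95% interval of -0.38 to 0.56, and -0.19 ± 0.30 (SE) for Scarb1, with an interval of -0.84 to 0.47. The adjusted p-values of edgeR were 0.974 and 0.956. Mylip, which acts on such receptors, was low in the liver, at 6.62, 6.54, 8.24 and 6.47 CPM in CS and 6.26, 4.66, 3.97, 6.97 and 6.63 CPM in PS mice. Its log2 difference was -0.29 ± 0.23 (SE) with an interval of -0.79 to 0.21 and an adjusted p of 0.846, and the groups overlapped.

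The lysosomal pair showed no difference beyond its spread in the liver. Npc1 ranged from 61.2 to 135 CPM in CS and from 82.3 to 114 CPM in PS livers, with a log2 difference of -0.056 ± 0.23 (SE), an interval of -0.56 to 0.45 and an adjusted p of 0.990. Npc2 ranged from 30.5 to 76.3 CPM in CS and from 26.4 to 83.8 CPM in PS livers, with a log2 difference of -0.030 ± 0.33 (SE), an interval of -0.75 to 0.69 and an adjusted p of 0.996. These intervals leave room for changes in either direction that 9 livers could not resolve. The lowest levels of Npc2, 30.5 and 26.4 CPM, were those of CS replicate 2 and PS replicate 1, the livers that stood apart in mitochondrial counts, and the other 7 livers held 46.0 to 83.8 CPM. Both of these livers lay below all others for 15.7% of all genes tested. The part of RNA quality in this was not tested, and the log2 difference of Npc2 without both was -0.059 with an adjusted p of 0.938.

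Npc1l1 did not reach the count minimum in either tissue and was not tested. It had 0 counts in all 4 CS livers among 64836536 counts, which allows a level of up to 0.0463 CPM at 3 counts, and 1 count in the 5 PS livers, in replicate 5. In the lungs it had 0, 0 and 2 counts in CS and 1, 8 and 10 counts in PS replicates 1 to 3. Summed over each group and divided by the totals, the lung level was 9.80 times higher in PS, with an exact 95% interval of 2.36 to 86.8 that covers counting error only and not the spread between mice. The 2 groups overlap, since the PS lung with 1 count lies below the CS lung with 2. At these levels, 0.552 CPM in the highest library, Npc1l1 RNA was at the edge of detection in both tissues.

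In the lung, Npc2 and Mylip were lower in PS mice and Lrp1, Scarb1 and Npc1 lay within 1.04-fold of the CS level. No member passed the adjustment over the 16717 genes tested, in which 1542 genes were called (9.22%). The unadjusted p was at most 0.05 for 2 of the 6 members tested and for 30.1% of all genes, and the diets did not overlap for 2 of 6 members and for 36% of all genes. The members' share was therefore close to that of all genes. The number of genes called in the lung rested on single mice: it was 9 to 26 without CS replicate 1, CS replicate 2 or PS replicate 2, 0 without CS replicate 3 and 2949 without PS replicate 1, and the lung calls named further on were made with all 6 lungs. DESeq2 called 1 member, Npc2, and 16.3% of all genes, so this share too was close to the background.

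The levels of Npc2 were 1308, 1179 and 1217 CPM in the CS lungs and 835, 559.7 and 939 CPM in the PS lungs. All PS lungs were below all CS lungs, and the lowest, PS replicate 2, had the largest mitochondrial share. The means were 1235 ± 66.5 CPM (SD, n = 3) in CS and 778 ± 196 CPM (SD, n = 3) in PS, a log2 difference of -0.67 ± 0.22 (SE) with an interval of -1.16 to -0.18. This is 1.59-fold lower. The unadjusted p was 0.0133 and edgeR's adjusted p was 0.0801. It became 0.0466 without PS replicate 3, with a log2 difference of -0.82, and 0.0436 with no filter on low counts, and DESeq2 gave 0.0134, so the call depended on 1 mouse, on the filter and on the tool. Without PS replicates 1 and 2 together, the lungs richest in mitochondrial counts, 1 PS lung remained and the log2 difference was -0.38 with an adjusted p of 0.191, the lone PS sample being assumed to vary like the CS group. Markers of alveolar type II cells, surfactant-producing cells, summed to 18900 to 19720 CPM in CS and 21220 to 33500 CPM in PS lungs, higher in every PS lung. The median log2 difference of these 5 genes was -0.038, with 1 higher and 1 lower at an unadjusted p at most 0.05 and 0 called, and their part in the Npc2 difference was not tested.

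Mylip measured 48.2, 68.6 and 51.6 CPM in the CS lungs and 35.6, 34.9 and 47.9 CPM in the PS lungs. The groups did not overlap, but the highest PS value and the lowest CS value lay next to each other. The log2 difference was -0.51 ± 0.19 (SE), with an interval of -0.95 to -0.070, an unadjusted p of 0.0277 and an adjusted p of 0.117. Leaving out CS replicate 2, the lung with the highest level, gave -0.36, and leaving out PS replicates 1 and 2 together gave -0.22 with an adjusted p of 0.548. Stard4 measured 47.3, 30.9 and 36.2 CPM in CS and 34.4, 29.7 and 20.5 CPM in PS lungs, and these groups overlapped. Its log2 difference was -0.44 ± 0.23 (SE), with an interval of -0.96 to 0.082 and an adjusted p of 0.232. Leaving out the same PS lungs moved this to -0.88 with an adjusted p of 0.0734, and leaving out 1 lung gave -0.61 to -0.25, the smallest without PS replicate 3 and the next, -0.28, without CS replicate 1.

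Lrp1 ranged from 270 to 354 CPM in CS and from 249 to 405 CPM in PS lungs, a log2 difference of 0.052 ± 0.21 (SE). Without PS replicates 1 and 2 together it was 0.44 with an adjusted p of 0.190. Scarb1 ranged from 53.0 to 71.5 CPM and from 58.7 to 67.2 CPM, a difference of 0.012 ± 0.15 (SE). Npc1 ranged from 77.5 to 87.0 CPM and from 74.5 to 104 CPM, a difference of 0.058 ± 0.16 (SE). The 95% intervals of these 3 genes lay between -0.43 and 0.54, and their adjusted p-values between 0.841 and 0.968. Npc1, to which Npc2 hands its cholesterol, thus overlapped between the diets in the lungs in which Npc2 did not. A lack of overlap held for 36% of all lung genes. Per gene length, the ratio of Npc2 to Npc1 was 29.95 ± 0.911 (SD, n = 3) in CS lungs, with a range of 29.2 to 31.0. It was 19.0 ± 7.34 (SD, n = 3) in PS lungs, with a range of 10.7 to 24.4. The lowest ratio was that of PS replicate 2, the lung with the largest mitochondrial share and the highest Npc1 level.

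**Figure D2:**
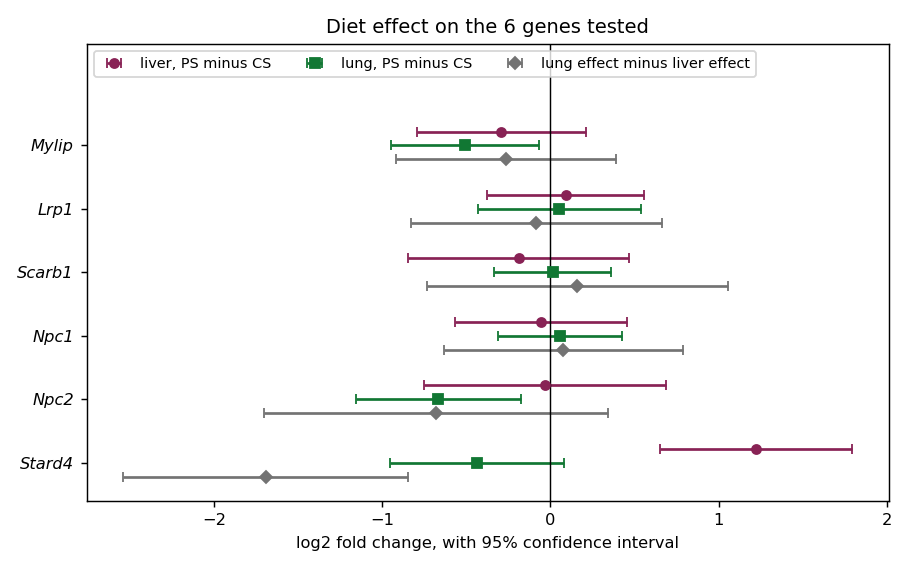
Log2 fold change between PS and CS mice (horizontal axis) for the 6 genes tested, in liver (circles) and lung (squares), and the lung effect minus the liver effect (diamonds). Bars are 95% confidence intervals without adjustment for the number of genes. The intervals that leave out 0 are those of Stard4 in the liver and in the difference, and of Mylip and Npc2 in the lung, and none of these passed the adjustment over all genes.

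Whether the diet effect differed between the tissues was tested in 1 model of all 15 libraries, in which 4 of 17696 genes were called (0.0226%). No member was among them with edgeR. Stard4 came nearest, with a lung effect that was lower than the liver effect by 1.69 ± 0.40 on the log2 scale (SE, interval of the difference -2.54 to -0.84). Its unadjusted p of 0.000617 was rank 54 of all genes and its adjusted p was 0.196. By contrast, DESeq2, which called 1.11% of all genes, gave -1.66 with an adjusted p of 0.0175. On the 6 mice that gave both tissues, with mouse as a block, edgeR gave -1.60 with an adjusted p of 0.872. For Npc2 the difference was -0.68 ± 0.48 (SE), with an interval of -1.70 to 0.34, so the lower Npc2 in PS lungs was not shown to be particular to the lung. The other 4 members had differences between -0.26 and 0.16, with adjusted p-values from 0.776 to 0.978.

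The members also differed in level between the tissues. Levels were compared per kb of gene length with all 15 libraries scaled together by TMM. In CS livers Lrp1 was highest, at 50.3 ± 14.9 CPM per kb (SD, n = 4), followed by Scarb1 at 27.5 ± 12.3, Npc2 at 15.4 ± 5.47, Npc1 at 13.8 ± 4.77, Stard4 at 6.33 ± 2.41 and Mylip at 3.15 ± 0.407. The ranges of each neighbouring pair in this order overlapped over the 4 mice. Within a library, though, the order of each pair held in 4 of 4 livers except for Npc2 and Npc1, where Npc2 was the higher in 1 of 4. In PS livers Stard4 stood at 14.9 ± 2.90 CPM per kb (SD, n = 5), beside Npc2 at 15.2 ± 5.91 and Npc1 at 13.4 ± 1.67. Measured within each library, the ratio of Stard4 to Npc1 was 0.455 ± 0.0469 (SD) in CS livers and 1.11 ± 0.150 (SD) in PS livers, and the highest CS ratio, 0.500, was below the lowest PS ratio, 0.884. The CS liver with the lowest Stard4 was also low in Npc1, and the ratio varied less among the CS livers than the level of Stard4 did.

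In CS lungs Npc2 was highest, at 129 ± 6.86 CPM per kb (SD, n = 3), and stood apart from all other members. Mylip at 9.86 ± 1.95 and Lrp1 at 9.64 ± 1.52 overlapped, and so did Npc1 at 4.31 ± 0.269, Scarb1 at 4.14 ± 0.627 and Stard4 at 3.88 ± 0.849. In PS lungs Npc2 stood at 79.3 ± 19.2 CPM per kb and again had no overlap with the next, Lrp1 at 9.73 ± 2.29. The ratio of Npc2 to Npc1 within a library was 1.15 ± 0.411 (SD) in CS livers and 1.17 ± 0.541 (SD) in PS livers, well below the ratios in the lungs given above.

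**Figure D3:**
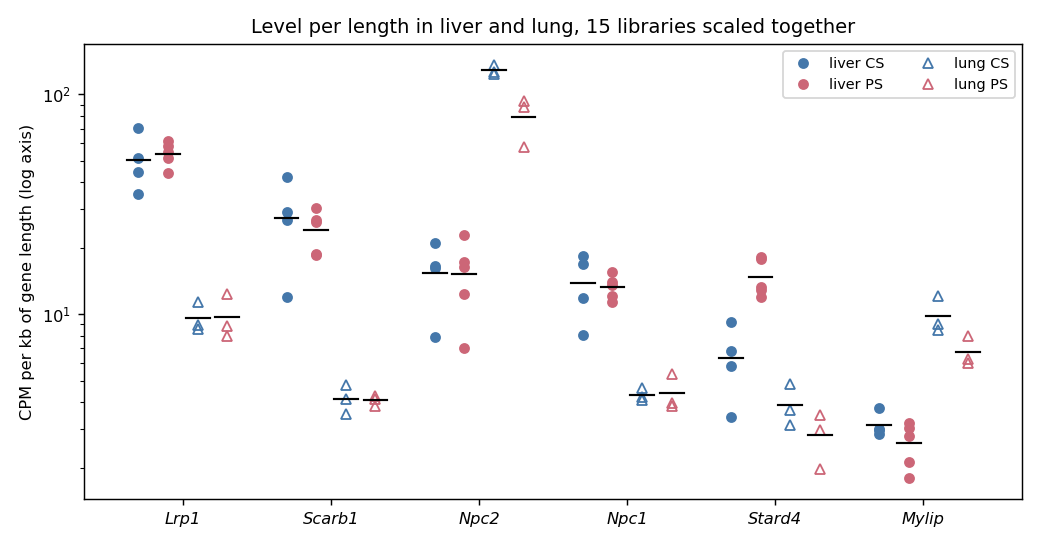
CPM per kb of gene length (vertical log axis) of the 6 tested genes in liver (filled circles) and lung (open triangles), by diet, with 1 TMM scaling over 15 libraries. Points are single mice and the lines mark group means. Lrp1 and Scarb1 lead in the liver, and Npc2, at 129 CPM per kb in CS lungs, leads in the lung.

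On the control diet all 6 members tested were called between lung and liver, beside 67.1% of all genes. In the lung, Npc2 was higher by 3.06 ± 0.36 (SE) and Mylip by 1.64 ± 0.22 on the log2 scale. There, Scarb1 was lower, at -2.73 ± 0.34, as were Lrp1 at -2.38 ± 0.28, Npc1 at -1.68 ± 0.26 and Stard4 at -0.71 ± 0.29. The adjusted p-values were at most 2.20e-05 except for Stard4, at 0.0411, whose call was lost in 6 of 15 fits with 1 library left out. These values depend on the scaling, since TMM and plain library totals differed by 1.38 on the log2 scale in the median of all genes. With totals, Npc2, Mylip, Lrp1 and Scarb1 kept their direction and call, Npc1 was -0.31 with an adjusted p of 0.279, and Stard4 turned to 0.66 with an adjusted p of 0.0518. Of all calls 55.2% were higher in the lung with TMM and 83.8% with totals. On the PS diet the differences by TMM were 2.38 for Npc2, 1.38 for Mylip, -2.57 for Scarb1, -2.47 for Lrp1, -1.61 for Npc1 and -2.40 for Stard4, and with totals that of Npc1 was -0.22 with an adjusted p of 0.427.

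The genes around these members were described by lists. Among 13 SREBP-2 target genes, which encode mostly enzymes of cholesterol synthesis and of which Stard4 is not counted as one here, none was called in the liver, but 13 of 13 were higher in PS and 10 had an unadjusted p at most 0.05, beside 7.55% of all liver genes. Their median log2 difference was 1.06, against -0.030 for all genes tested. Insig1, which retains SREBP in the endoplasmic reticulum, differed by 1.33 (adjusted p 0.0974) and Fdft1, squalene synthase, by 0.97 (0.0974). In the lung, where 9.22% of all genes were called, 4 of the 13 fell and none rose, with a median of -0.43 against 0.0052 for all genes. Among them Idi1, an isoprenoid isomerase, fell by 2.67 on the log2 scale (adjusted p 0.0154), Sc5d, a late sterol desaturase, by 0.67 (0.0322) and Insig1 by 0.60 (0.0457). The lung effect was lower than the liver effect for 13 of 13, with a median of -1.30, and for Insig1 the difference passed the adjustment (-1.98, adjusted p 0.0296). This call was lost with mouse as a block (-1.84, adjusted p 0.454) and in 10 of 15 fits with 1 library left out, in which the difference ran from -2.16 to -1.88 and the adjusted p from 0.00572 to 0.187.

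**Figure D4:**
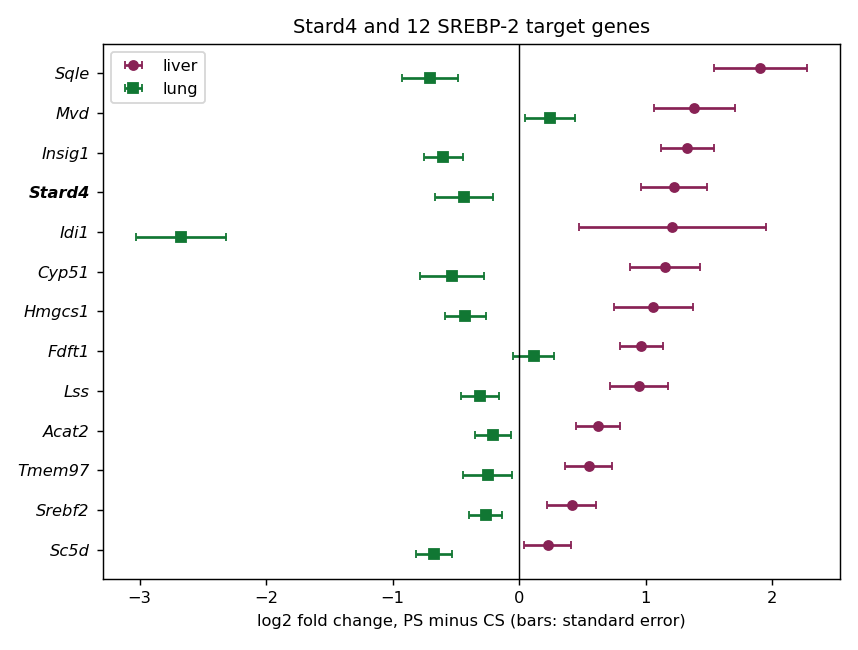
Log2 fold change between PS and CS mice (horizontal axis, bars are standard errors) of Stard4 and 12 of the 13 SREBP-2 target genes, in liver (circles) and lung (squares), ordered by the liver value. Stard4, at 1.22 in the liver and -0.44 in the lung, lies within the range of these genes in both tissues.

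For Stard4 the gene with the most similar course over the 15 libraries was Cyp51, lanosterol demethylase. The root mean square difference of their centred log2 CPM was 0.151, against a median of 1.31 over all genes. The next were Aldoc at 0.366 and Hnmt at 0.390. Cyp51 averaged 24.7 ± 9.65 CPM (SD, n = 4) in CS and 55.2 ± 11.1 CPM (SD, n = 5) in PS livers, and 37.9 ± 8.71 and 26.3 ± 8.34 CPM (SD, n = 3 each) in CS and PS lungs. Its log2 difference was 1.16 in the liver (adjusted p 0.227) and -0.53 in the lung (0.195). Nearest to Npc1 were Rnf214 at 0.141, Mtmr4 at 0.172 and Nbr1 at 0.180. Nearest to Lrp1 were Repin1 at 0.169, Stradb at 0.209 and Agfg2 at 0.214, and to Scarb1 Dnaja3 at 0.207 and Sec23a at 0.210. Among the nearest to Mylip were Patj at 0.236 and Foxj2 at 0.246, and Npc2 was nearest to Tmod3 at 0.248, Sccpdh at 0.264 and Pgm2l1 at 0.282. The medians over all genes for these 5 members were 1.11 to 1.58. The 15 libraries include both tissues, so differences between the tissues enter each course.

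Partners at the cell surface came next. Over the lists other than that of SREBP-2 targets, 0 of 84 tested genes were called in the liver, beside 0.00758% of all genes. Called in the lung were 8 of 86 (9.30%), close to the 9.22% of all lung genes. The lung calls of these lists thus describe single genes and nothing particular to a list. Of 16 tested uptake receptors and partners none was called in the liver, 8 were higher and 8 lower, with a median of -0.035. Usp2, a deubiquitinase, differed by 1.81 ± 0.65 (SE, adjusted p 0.507). In the lung 1 of 16 fell, Lsr, a receptor for triglyceride-rich lipoproteins, by 1.34 on the log2 scale (adjusted p 0.0190), and the median was -0.29. Vldlr, a receptor for very low-density lipoprotein, was at -0.54 (0.0608). Of 10 tested scavenger receptors and Scarb1 partners none was called in the liver, with a median of -0.13. There Slc9a3r1, a scaffold protein, was at 0.66 (0.321), Cd81, a tetraspanin, at 0.37 (0.633) and Marco, a macrophage receptor, at -1.35 (0.704). The Kupffer cell markers, whose sum was lower in 4 of 5 PS livers than in any CS liver, moved in the same direction as Marco, and their part in its value was not tested. In the lung 1 of 10 rose, Stab1, a scavenger receptor of macrophages and endothelium, by 0.96 (0.0394), with a median of 0.12. Scarb2, a lysosomal relative of Scarb1, was at -0.78 (0.0532) and Cd36, a fatty acid and lipoprotein receptor, at -0.73 (0.0758).

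Receptor recycling from endosomes was described by 10 tested genes. None was called in the liver, where the median was 0.011, with Snx17 at -0.38 (adjusted p 0.699), Rab11a at 0.35 (0.747) and Washc4 at 0.29 (0.789). In the lung Vps35, the core subunit of the retromer, fell by 1.06 (0.0194), while Washc2 was at -0.75 (0.0619) and Washc1 at 0.40 (0.102), both members of the WASH complex, and the median was -0.17. The 7 genes of Npc1l1 trafficking had no call in the liver (median 0.0065), where Numb, its endocytic adaptor, was at -0.20 (0.875), Rab11fip2 at 0.27 (0.875) and Lima1 at -0.21 (0.966). In the lung Rab11fip2, a Rab11 effector, fell by 0.76 (0.0331), with Myo5b at -0.57 (0.0582), Lima1 at -0.37 (0.128) and a median of -0.18.

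In the lysosome, the compartment of Npc1 and Npc2, 14 genes were tested. None was called in the liver (median 0.0090), where Gpr155, a lysosomal cholesterol sensor, was at 0.79 (adjusted p 0.320), Tmem97, an Npc1-binding protein that is also in the SREBP-2 list, at 0.55 (0.463) and Lipa, the acid lipase that frees cholesterol from its esters, at -0.40 (0.852). In the lung Mcoln1, a lysosomal cation channel, rose by 0.58 (0.0394), Lipa was at -0.47 (0.0573) and Tfeb, a regulator of lysosomal genes, at 0.36 (0.114), with a median of -0.067. Of the sterol transfer proteins other than Stard4, none of 19 was called in the liver (median 0.038), where Osbpl8 was at 0.48 (0.543), Osbpl11 at -0.27 (0.764) and Osbpl5 at 0.81 (0.796). Of 23 in the lung, Gramd1a, which moves cholesterol from the plasma membrane to the endoplasmic reticulum, rose by 1.09 (0.0338) and Osbpl3 fell by 0.58 (0.0398), Osbpl10 was at -1.13 (0.0674), and the median was 0.047. Of 8 LXR targets other than Mylip, none was called in the liver (median -0.053), with Srebf1 at 0.79 (0.541), Abcg1 at -0.68 (0.726) and Arl4c at -0.74 (0.760). In the lung 1 of 6 tested fell, Arl4c, a small GTPase, by 0.78 (0.0454), with Abca1, the cholesterol exporter, at -0.35 (0.115), Nr1h3, the gene of LXR alpha, at 0.44 (0.139) and a median of 0.043. Apart from the SREBP-2 list, 0 of 91 tested genes had a diet effect called as different between the tissues, beside 0.0226% of all genes.

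**Figure D5:**
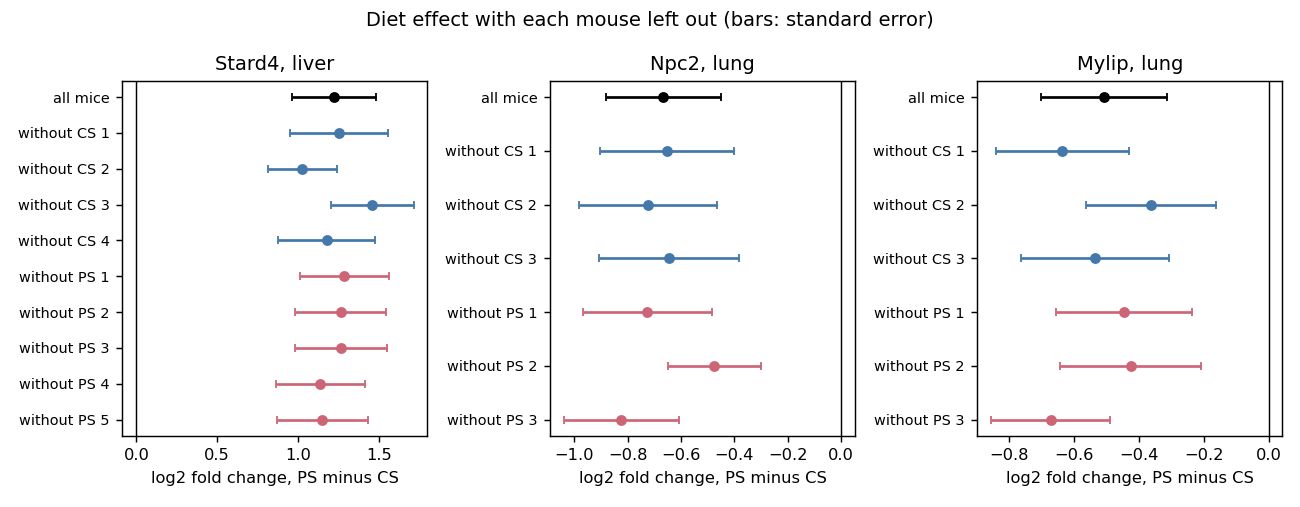
Log2 fold change between PS and CS mice (horizontal axis, bars are standard errors) of Stard4 in the liver and of Npc2 and Mylip in the lung, with all mice (black) and with each CS (blue) or PS (red) mouse left out. The values run from 1.03 to 1.46 for Stard4, from -0.82 to -0.48 for Npc2 and from -0.67 to -0.36 for Mylip.

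With each mouse left out in turn, Stard4 in the liver kept its direction, with adjusted p-values from 0.0597 to 0.513. Npc2 in the lung kept its direction with adjusted p-values from 0.0466 to 0.197, and Mylip with values from 0.0514 to 0.324.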

How the data were processed

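Total RNA of frozen liver and lung was made into poly(A)-selected libraries. Per the labels, the authors aligned reads to mm10 with HISAT2 2.0.5 and counted them per gene with featureCounts 1.5.0-p3. They deposited these counts as they were, without scaling. The authors' FPKM values equal count over gene length times 1 factor per library (within 2.74e-07%) and served in alternatives only, with pseudocounts of 1 and 0.1. Columns were matched to samples by name, and 0 columns remained.

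The diets were compared within each tissue by edgeR 4.0.16 (R 4.3.3; default filter on low counts, TMM, robust quasi-likelihood test). The diet effects and the tissues were compared in 1 model of 15 libraries. Standard errors are the log2 fold change divided by the root of F. P-values were adjusted over all genes tested by the Benjamini-Hochberg method and called under 0.05. The fits were tested on simulated data. Depth limits genes of few counts, and the intervals for Npc1l1 are exact at 95% and cover counting error. Replicate libraries differed by far more than sampling noise. The labels name no batch, and p-values measure the spread between mice.

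The alternatives were DESeq2 1.42.0 (its size factors, and its Wald test), dropping the filter, requiring 10 counts in each library, limma-trend (limma 3.58.1) on log2(FPKM + pseudocount), a block, and leaving out each library. Chosen after seeing the data were library totals alone, and leaving out both livers or both lungs with the most mitochondrial counts. Mice that gave both tissues are a true pairing. Deviations of a mouse's liver and lung from their group means correlated at -0.0355 to 0.0929 over genes.

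Named besides the 7 members are the 3 genes of smallest p per list and tissue, further called ones, and, for each member, the 3 genes whose log2 CPM (prior count 2), centred over the 15 libraries, differs least by root mean square. The members and lists were chosen with earlier results of these data known. Single values of a few genes under this rule are not reported here, although those in a list enter its counts. Promoters are from RefSeq and matched 4 members by symbol, Mylip, Lrp1, Npc1l1 and Npc2.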

Additional observations from a re-analysis of the deposited data

Results flagged for a closer look

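1 of 12 groups of a member's levels held a sample far from the others by Dixon's test, which chance does in about 1 of 20 groups. Mylip measured 8.24 CPM in the CS liver of replicate 3 and 6.47 to 6.62 CPM in the other 3, so that the gap took up 0.913 of the group's range, above the critical value for 4 samples. Without this liver the log2 diet difference of Mylip was -0.20, against -0.29 with all livers.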

How the results depend on the processing

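Over all comparisons, 505 of 546 recomputed member differences kept their direction and their side of the threshold, 24 changed sign, 12 lost a call and 5 gained one. The number of members called went from 0 to 1 with DESeq2's Wald test in the liver (Stard4), the lung (Npc2) and the difference between the tissues (Stard4), and in the lung also with no filter (Npc2). Leaving out each lung in turn gave 0 to 1 members called, the 1 being Npc2 without PS replicate 3. In the liver, where 1 gene was called, 128 were with DESeq2, 26 with no filter, 2 with at least 10 counts in every library, 6 and 4 with limma-trend at pseudocounts of 1 and 0.1, 48 without both high-mitochondrial livers and 0 to 65 with 1 liver left out, the most without CS replicate 2. In the lung, where 1542 genes were called, 2944 were with DESeq2 and 0 (without CS replicate 3) to 2949 (without PS replicate 1) with 1 lung left out. For the difference, where 4 were called, 189 were with DESeq2, 10 with no filter and 0 to 12 with 1 library left out. The causes were not tested.

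All changes of sign but 1 were in differences near 0 that were never called. With 1 library left out, the liver log2 differences ran from -0.037 to 0.29 for Lrp1, -0.43 to 0.091 for Scarb1, -0.24 to 0.11 for Npc1 and -0.24 to 0.15 for Npc2. Those in the lung ran from -0.18 to 0.18 for Lrp1, -0.053 to 0.10 for Scarb1 and -0.11 to 0.14 for Npc1. The differences between the tissues' effects ran from -0.29 to 0.053 for Lrp1, -0.12 to 0.41 for Scarb1 and -0.099 to 0.26 for Npc1. Without both high-mitochondrial livers Lrp1 was at -0.070 in the liver, and without both such lungs Npc1 was at -0.085 in the lung. The called one was Stard4 between the tissues on the control diet, at 0.66 with library totals. Its call was also lost, at -0.47 to -0.75, in 6 of 15 fits with 1 library left out, at -0.58 with DESeq2's size factors, -0.57 with its Wald test and -0.62 with no filter.

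The replicate numbers of the labels mark no shared animal between the diets, and same-numbered samples deviated with correlations of -0.358 to -0.0295 in the liver and -0.00648 to 0.0988 in the lung. With this number as a replicate block 0 genes were called in the liver and 1623 in the lung, and 0 members in each. With mouse as a block on the 6 mice with both tissues, 0 genes were called for the difference, and Stard4 between the tissues on the control diet was -0.62 with an adjusted p of 0.131. The block changed no other call on a member.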

Other observations

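Among the 4 CS livers, replicate 2 had the lowest level of 5 of the 6 tested members and of 38.3% of all liver genes tested, with 443 CPM of Lrp1, 72.8 of Scarb1, 61.2 of Npc1, 30.5 of Npc2 and 13.5 of Stard4. Replicate 3 had the highest level of 5 of 6 and of 24.8% of all genes, with 846 CPM of Lrp1, 243 of Scarb1, 135 of Npc1, 35 of Stard4 and 8.24 of Mylip. Replicate 2 is the CS liver with 14.4% mitochondrial counts, against 4.13% in replicate 3. Among the 5 PS livers the spread was narrower for Scarb1, with a coefficient of variation of 20.8% against 43.8% in CS, for Stard4, with 18.8% against 37.1%, for Lrp1, with 12.7% against 28.6%, and for Npc1, with 12.5% against 33.5%. It was not narrower for Npc2, with 38.2% against 33.6%, nor for Mylip, with 23.0% against 12.2%. These differences in spread were not tested and not set beside those of all genes, so they cannot be read as particular to these members.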
